A study of Mus musculus with 2 samples.

Results

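Transcripts of Ecm1 and of the interleukin-2 (IL-2) receptor pathway were examined in T helper 2 (Th2) cells, an IL-4-making kind of CD4 T cell, cultured from Ecm1 knockout and wild-type mice. The members were 9 genes chosen by name: Ecm1, the cytokine gene Il2, the receptor chains Il2ra, Il2rb and Il2rg, the kinases Jak1 and Jak3, and the transcription factors Stat5a and Stat5b. Of these 9, 8 were named by a probe set with a single gene symbol, among 18193 genes so named, and their 14 probe sets are all given here. For Il2rg the platform annotation used here lists no probe set, so it was not analysed.

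The groups were Ecm1 knockout (KO) and wild type (WT), both of the C57BL/6 strain, with 1 array each. Splenic CD4 cells of mice described as female and 6 weeks old spent 4 days in culture, stimulated by anti-CD3 bound to the plate at 3 µg/ml and by anti-CD28 at 2 µg/ml. Th2 conditions came from IL-4 at 10 ng/ml, where the label's unit is garbled, and from antibodies against IL-12 and IFN-γ at 10 µg/ml each. The labels list no added IL-2. The KO allele's design and how many animals each array stands for were not stated in the sources used here. With 1 array a group, no difference could be tested, and each value describes these 2 RNA samples.

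IL-2 is the growth factor that activated T cells make for themselves. It binds a receptor of an α chain (Il2ra, CD25), which raises affinity, and the signalling chains β (Il2rb, CD122) and γ (Il2rg). The β chain carries the kinase Jak1 and the γ chain Jak3, which phosphorylate STAT5, and STAT5 dimers then enter the nucleus and switch on genes such as Cish and Il2ra. The product of Ecm1 is a glycoprotein that cells secrete into the matrix, and the study is known for asking whether it acts on Th2 cells through the IL-2 receptor β chain. The arrays measured transcripts only, not receptor protein or STAT5 phosphorylation.

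Several points on the libraries bear on every value. The Y-linked gene Eif2s3y read 2214.4 on the KO array and 25.0 on the WT array, although the labels describe female mice. The X-inactivation transcript Xist was lower on the KO array in all 3 of its probe sets, between -1.27 and -0.95 on the log2 scale. Xist still read 8715.3 in KO and 19739.9 in WT in its brightest probe set, and 937.0 and 1950.3 in its dimmest. The KO array thus carried both Y-linked and Xist signal. Sex-linked signal and genotype cannot be told apart here. The sample descriptions name liver while titles name Th2 cells. Of 9 hepatocyte markers on the arrays, 2 reached the floor, each on 1 array only. These were Apoa2 in KO (121.5, with 68.6 in WT) and Hnf4a in WT (73.0, with 30.2 in KO). The others were below the floor on both arrays, with Alb at 24.1 and 4.8, Apoa1 at 17.8 and 2.7, and Ttr at 1.6 and 25.6 on the KO and WT arrays. Signals of T cell genes were lower and those of B-lineage and macrophage genes higher on the KO array, with the values given below beside the results.

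Promoter sequences are shown for 4 of the members with differences described below, without Stat5b, which was also lower by its brighter probe set. Ecm1 and Jak3 were lower on the KO array, as was Jak1, and Il2ra was the member that was higher. Each is the 250 bases before the RefSeq start, 5′ to 3′, from build GRCm38.p6, with capitals marking any match, on either strand, to the STAT element, the AP-1 element, the GATA element or the NFAT core. The STAT element was searched as TTCNNNGAA. For AP-1 the letters were TGANTCA. The GATA letters searched for were AGATAA. The letters TGGAAA were taken as the NFAT core. The windows are chr3:95739570-95739819 (minus strand), chr2:11642542-11642791 (plus strand), chr4:101265224-101265473 (minus strand) and chr8:71676133-71676382 (plus strand).
Ecm1: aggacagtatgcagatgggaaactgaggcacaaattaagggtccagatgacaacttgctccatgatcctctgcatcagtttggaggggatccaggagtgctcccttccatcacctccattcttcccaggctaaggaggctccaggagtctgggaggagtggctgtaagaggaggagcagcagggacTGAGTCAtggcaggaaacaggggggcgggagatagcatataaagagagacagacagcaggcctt
Il2ra: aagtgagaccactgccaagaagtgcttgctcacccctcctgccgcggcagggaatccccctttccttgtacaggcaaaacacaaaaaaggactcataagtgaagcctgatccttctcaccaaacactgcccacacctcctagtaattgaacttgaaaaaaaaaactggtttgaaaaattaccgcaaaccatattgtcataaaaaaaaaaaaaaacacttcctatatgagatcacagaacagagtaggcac
Jak1: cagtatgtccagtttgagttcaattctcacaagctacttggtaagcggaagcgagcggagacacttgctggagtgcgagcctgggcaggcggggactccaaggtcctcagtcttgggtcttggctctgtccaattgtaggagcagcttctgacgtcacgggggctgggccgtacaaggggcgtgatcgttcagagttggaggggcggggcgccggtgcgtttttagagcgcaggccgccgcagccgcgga
Jak3: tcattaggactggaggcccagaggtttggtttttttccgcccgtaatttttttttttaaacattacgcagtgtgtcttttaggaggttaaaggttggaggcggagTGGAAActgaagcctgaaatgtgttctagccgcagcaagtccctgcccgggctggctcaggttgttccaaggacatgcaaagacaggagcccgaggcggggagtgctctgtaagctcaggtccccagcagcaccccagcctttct
RefSeq promoters were found for 8 of the 9 members, 10 windows in all because Stat5a and Stat5b each had several starts. None of the 10 held the STAT element, which was present in 7.02% of 32851 promoter windows of the same length, and none held the GATA element (9.99% of all). Ecm1 alone among the members held an AP-1 element, as TGAGTCA 64 to 58 bases before its start, against 6.75% of all promoters. The NFAT core was in 4 of the 10 windows, those of Il2, Il2rg, Jak3 and 1 start of Stat5b, against 18.6% of all promoters. No matches overlapped. A match is a description of the letters and not a binding site.

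Ecm1 was among the brightest genes of the WT cells and did not reach the floor in KO cells. Its single probe set read 19.3 on the KO array, where the floor (the array's median signal) was 65.5, and 29114.7 on the WT array, where the floor was 69.2. It ranked 179th of 45101 probe sets on the WT array, in the top 0.397%, and 32286th on the KO array. Against the KO floor the log2 difference, KO minus WT, was -8.69 or lower, at least 414-fold, after centring. All differences given here were centred by subtracting -0.10, their median over probe sets that reached the floor on both arrays. Whether the probe set lies inside the deleted part was not stated in the sources used here, so the probe set checks the label only as far as it reads a lost sequence.

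By gene, Ecm1 ranked 54th of 18193 in WT brightness. The glycolytic enzyme gene Aldoa (25451.5 in KO and 29541.4 in WT) and the ribosomal gene Rpl8 (28227.8 and 29195.6) came just above it, and Ptprc, the pan-leukocyte phosphatase CD45 (22264.5 and 29052.3), and the granzyme gene Gzma (8692.4 and 29033.8) just below. Such ranks compare probe brightness and not transcript numbers between genes. Of 482 genes at or above the floor in WT and below it in KO, Ecm1 had the largest bound. Those nearest to it were Gzmd (53.3 in KO and 1509.2 in WT, a bound of -4.42) and Gzme (11.9 and 515.9, -2.87), granzymes whose near-identical relatives can share signal, then Slfn5 (45.0 and 404.8, -2.52) and Tgfb3, a TGF-β ligand (56.6 and 386.5, -2.46). Likeness here rests on 2 arrays and 1 difference per gene.

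The genes flanking Ecm1 on chromosome 3 were read next. Adamtsl4, the adjacent protein-coding gene on 1 side, which encodes an ADAMTS-like matrix protein, read 1907.1 in KO and 4495.2 in WT (-1.13). Tars2, the adjacent gene on the other side, which encodes the mitochondrial threonyl-tRNA synthetase, read 535.9 in KO and 1160.3 in WT (-1.01), and its other probe set read 447.6 and 775.4 (-0.69). Both genes that border Ecm1 were thus at least 2-fold lower by their brightest probe set, Tars2 only just. Among the 20 nearest protein-coding genes, 10 on each side, 17 reached the floor on both arrays, and their median was 0.24. Adamtsl4 and Tars2 were the 2 of these 17 at least 2-fold lower, where 4.45% of 10144 genes were. Anp32e, 9 genes away, was the 1 at least 2-fold higher (9261.9 in KO and 4906.1 in WT, 1.02), where 7.14% of genes were. Mcl1, a survival gene of the BCL-2 family that lies 2 genes away and is also a STAT5 target, read 19557.4 in KO and 17725.2 in WT (0.24). Under other settings Adamtsl4 ran from -1.24 to -1.13 and Tars2 from -1.11 to -0.85, with 4 of its 8 values inside 2-fold.

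**Figure D1:**
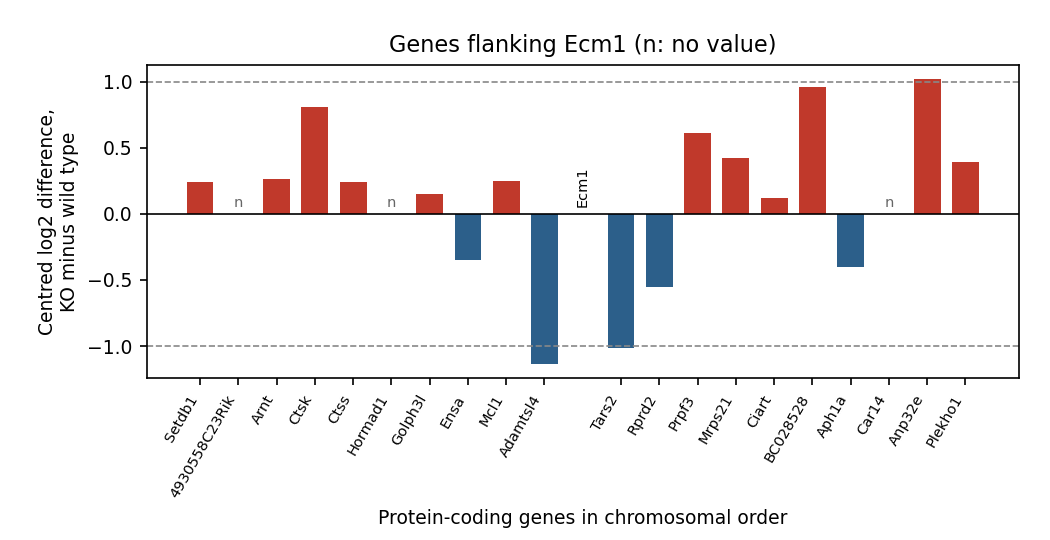
Centred log2 difference, KO minus WT (vertical axis), for the 10 protein-coding genes on each side of Ecm1 in chromosomal order (horizontal axis). Bars are single differences between 1 KO and 1 WT array, red above 0 and blue below, dashed lines mark 2-fold, and n marks genes without a value. Adamtsl4 (-1.13) and Tars2 (-1.01), which border Ecm1, are the lowest bars.

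For the ligand, Il2 was below the floor on both arrays. Its probe set read 32.0 in KO and 33.8 in WT, with ranks of 28457 and 28246 of 45101, so no fold is given. A difference in Il2 transcript was not detectable on these arrays after 4 days of culture.

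The receptor chains went different ways. Il2ra, the α chain that activated T cells and regulatory T cells display, was higher on the KO array in both of its probe sets. The brighter read 10047.2 in KO and 6478.3 in WT (0.74, or 1.67-fold), and the other read 3180.0 and 1743.9 (0.97, or 1.96-fold). By the first value Il2ra lay above 86.7% of 10144 genes. Il2rb, the β chain, differed little, with 4037.5 in KO and 4798.4 in WT (-0.15) in the brighter probe set and 1384.1 and 1870.9 (-0.33) in the other. The only measure of error on these arrays is the technical SD of 0.36, from the 2 brightest probe sets of 4657 genes, and it holds no error of the animals, the cultures or the arrays. Il2ra was 2.04 and 2.69 times that SD from 0, while both Il2rb values lay inside it. Neither gene reached 2-fold.

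The kinases that the receptor carries were both lower on the KO array. Jak1, which binds the β chain, read 3122.1 in KO and 6197.7 in WT (-0.89), 2821.0 and 5175.3 (-0.77), and 668.1 and 1233.8 (-0.78) in its 3 probe sets. These averaged -0.81 ± 0.063 (SD, n = 3 probe sets hybridised with the same RNA), the closest agreement among the members with several probe sets. Jak3, which binds the γ chain and is largely confined to blood cells, had 1 usable probe set, with 1170.6 in KO and 2610.4 in WT (-1.05, or 2.08-fold lower). Jak3 was lower than all but 3.88% of genes and Jak1 than all but 6.18%.

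The transcription factors were less uniform. Stat5b read 1702.8 in KO and 3800.7 in WT in its brighter probe set (-1.06), whereas the dimmer probe set read 161.2 and 153.6 (0.17), so the gene's direction depends on which is read. Stat5a read 723.1 in KO and 1086.0 in WT (-0.48, outside the technical SD). Its dimmer probe set read 49.2, below the floor, in KO and 140.1 in WT, a bound of -0.99. Stat5a and Stat5b are adjacent paralogs with closely similar coding sequences, so their probe sets may share signal and the single-gene values are uncertain.

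**Figure D2:**
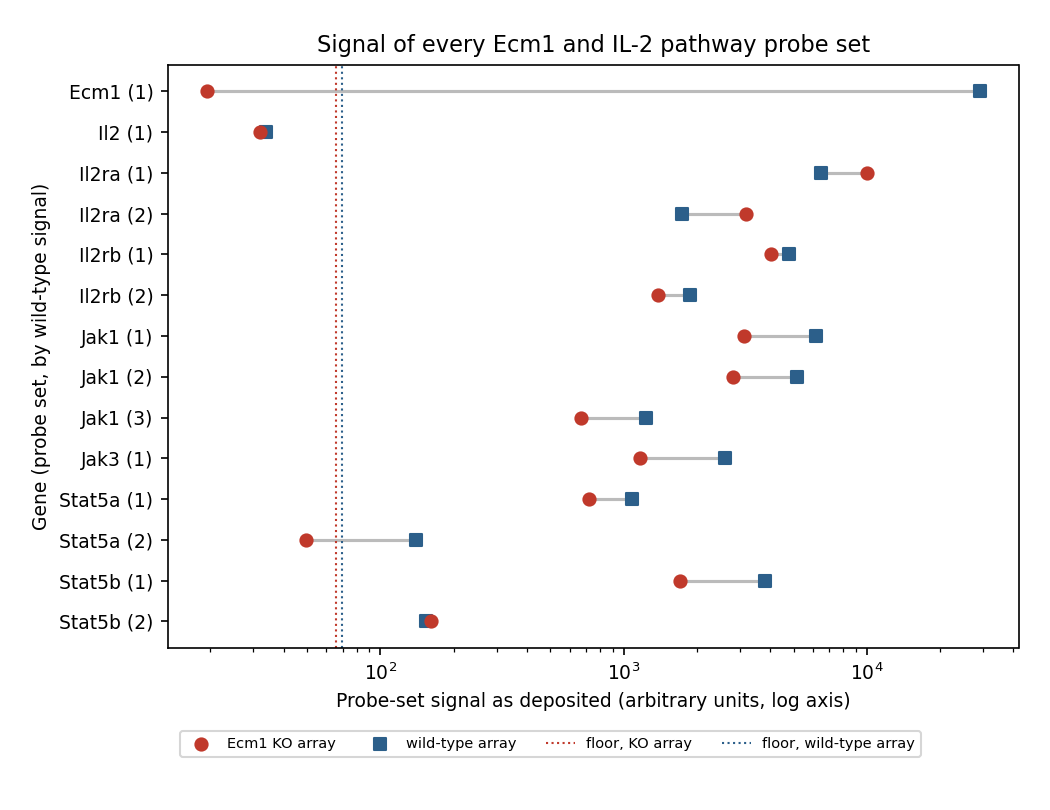
Signal as deposited (horizontal log axis, arbitrary units) for all 14 probe sets of 8 member genes, numbered within a gene by WT signal, with KO as red circles, WT as blue squares and each array's floor as a dotted line. Ecm1 spans 19.3 to 29114.7, Il2 sits below both floors, and Il2ra is the gene with its KO points to the right in both probe sets.

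Of the members, 6 genes reached the floor on both arrays: Jak3 and Stat5b were the 2 that were lower by 2-fold or more, 0 were higher by as much, and 4 lay within 2-fold. Among all 10144 such genes 4.45% were at least 2-fold lower and 7.14% higher. The split of all 2-fold genes was 61.6% higher after centring and 49.0% in the signals as deposited. The 6 members had a median of -0.69, against 0.04 for all genes. By probe set, 8 of 11 at or above the floor lay below 0, and 2 were at least 2-fold lower and 0 higher, against 4.69% and 7.21% of 17951 probe sets. Jak1 crossed 2-fold under 2 other settings (-1.03 after quantile normalization and -1.02 after loess), and Stat5b left it when its probe sets were averaged (-0.44).

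**Figure D3:**
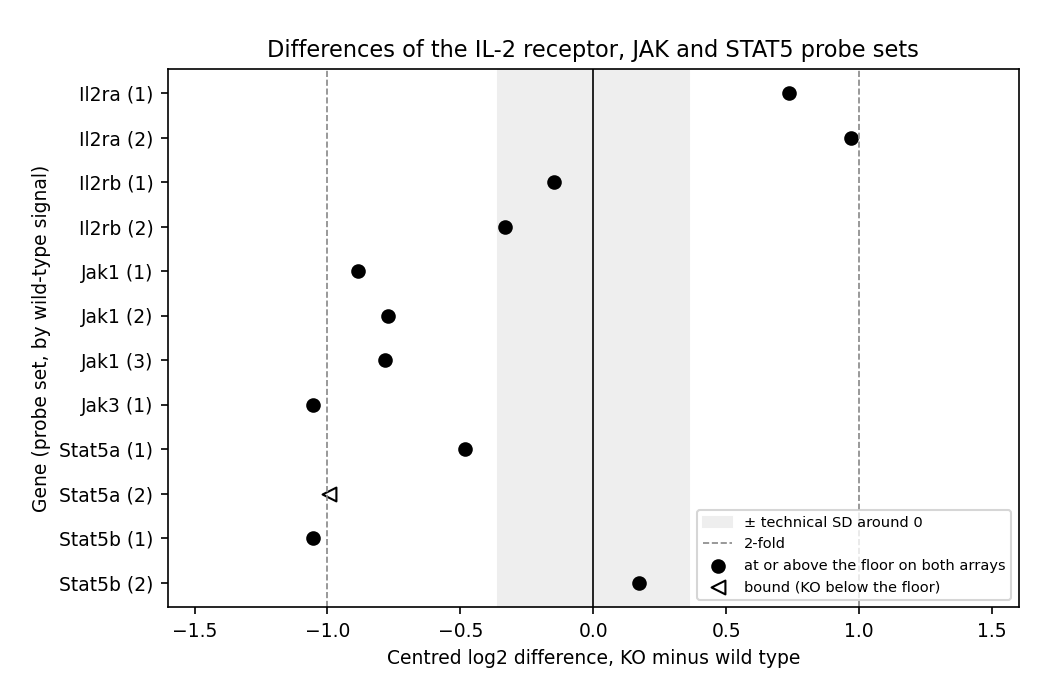
Centred log2 difference, KO minus WT (horizontal axis), for the 12 probe sets of Il2ra, Il2rb, Jak1, Jak3, Stat5a and Stat5b, with the technical SD of 0.36 as a grey band, 2-fold as dashed lines and a triangle for the Stat5a bound. The Jak1, Jak3 and Stat5a points lie left of the band, those of Il2ra right of it, and those of Stat5b at -1.06 and 0.17.

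The other JAK and STAT genes were also lower on the KO array. Jak2 read 2279.6 in KO and 4196.1 in WT (-0.78), Stat4, the IL-12 signal transducer of Th1 cells, 1382.5 and 3063.9 (-1.05), Stat2, the interferon signal transducer, 214.5 and 455.7 (-0.98), and Stat6, which carries the IL-4 signal, 2126.5 and 3556.3 (-0.64). All 6 genes of that list lay below 0, with 1 at least 2-fold lower (median -0.71). With Jak1, Jak3, Stat5a and Stat5b, 10 of 10 measured JAK and STAT genes lay below 0 by brightest probe set, between -1.06 and -0.13. Among 11265 genes measured on at least 1 array, 46.3% lay below 0 and 4.45% were at least 2-fold lower. Tyk2 (-0.13) lay inside the technical SD of 0.36. The other Stat2 probe set was at -0.40, and the dimmer Stat5b probe set was above 0 (0.17). The JAK and STAT5 members were thus not set apart from their relatives by direction.

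The measured receptors and ligands that share the γ chain, or resemble those that do, also lay below 0, some of them inside the technical SD. Il7r, the IL-7 receptor of resting T cells, read 6173.7 in KO and 17809.5 in WT (-1.43), and the cytokine Il21 1446.9 and 3555.3 (-1.19). Its receptor Il21r was at -0.53 and the IL-4 receptor Il4ra at -0.46. Of 12 listed genes 7 were measured, all 7 below 0 and 2 at least 2-fold lower (median -0.46). Among all 11265 genes measured on at least 1 array, 46.3% lay below 0 and 4.45% were at least 2-fold lower. Il15ra, the IL-15 counterpart of Il2ra, read 312.0 in KO and 351.2 in WT (-0.07). Il15ra, Crlf2 (-0.12) and the cytokine Il4 (-0.31) lay inside the technical SD of 0.36. The 2 other Il4ra probe sets were at -0.83 and -0.02.

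Genes that STAT5 is known to induce did not move one way. Members were left out of all lists, so Il2ra, higher in KO (0.74 and 0.97), is not counted here. Of 32 measured by brightest probe set, 2 were higher by 2-fold or more, 1 was lower by as much and 29 lay between. The shares were 6.25% and 3.13% beside 7.14% and 4.45% of all genes, and the median was -0.20. Of the 29, Maf (-0.73), Bcl2 and Ccnd3 (-0.62) had other probe sets past 2-fold lower, down to -1.65, -1.59 and -2.07. No other probe set of the 29 was past 2-fold higher. The cytokine genes Lif (2647.1 in KO and 1100.3 in WT, 1.37) and Lta (2188.7 and 1128.9, 1.06) were the higher ones. Socs3, an inhibitor of cytokine receptors, was the lower one (6126.3 and 14713.7, -1.16), followed by the inhibitory receptor Ctla4 (4610.8 and 9860.5, -0.99). Cish, a SOCS family member often read as a marker of STAT5 activity, read 7497.1 in KO and 9343.7 in WT (-0.21), inside the technical SD. The survival gene Bcl2 was at -0.56 and the cyclin gene Ccnd2 at 0.51.

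Inhibitors of cytokine receptors were mostly within 2-fold as well. Of 22 measured by brightest probe set, 0 were past 2-fold upwards and 2 (9.09%) downwards, with a median of -0.21. Of the 20 between, Socs4 (-0.05) had another probe set at 1.07 and Ptprc (-0.28) another at -1.55. Among all 11265 genes measured on at least 1 array, 7.36% were past 2-fold upwards and 4.45% downwards. The 2 inhibitors were Socs3 and the ubiquitin ligase Cblb (946.1 in KO and 2231.4 in WT, -1.14). Socs2 went the other way, with 16395.2 in KO and 9067.8 in WT (0.96), and its 4 other probe sets all lay above 0, the lowest at 0.21. Socs5 was at -0.85 in its brighter probe set and 0.55 in the other. Of 19 measured receptor-proximal adaptors and kinases, 2 (10.5%) were at least 2-fold higher and 0 lower (median -0.08), against 7.36% and 4.45% of those 11265 genes. These were Syk, a kinase that B cells use in antigen receptor signalling (1977.9 in KO and 576.0 in WT, 1.88), and the adaptor Gab2 (173.5 and 56.6, a bound of 1.43, with -0.02 in its other probe set). The Src-family kinase Fyn (-0.81) and the MAPK kinase Map2k1 (-0.75) were the lowest there.

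Genes that IL-2 is known to lower, a list chosen with earlier results of these arrays known, lay below 0 in all 9 measured by brightest probe set. Klf2, a quiescence factor, read 1350.2 in KO and 7282.1 in WT (-2.33), and S1pr1, the sphingosine-1-phosphate receptor of T cell egress, 540.7 and 2553.1 (-2.14). Ccr7, a lymph node homing receptor, read 1810.6 and 3870.5 (-0.99). Of 9 measured, 3 (with Il7r) were at least 2-fold lower, 0 higher and 6 neither (median -0.99). Il6ra (-0.99) had another probe set at 0.10, Il6st (-0.38) had another at 0.03, and Il17a had only a bound of -0.07. The CD4 T cell markers described below had a median of -1.03. Among all 11265 genes measured on at least 1 array, 4.45% were at least 2-fold lower and 7.36% higher. Factors that drive or limit Il2 transcription had 2 of 18 (11.1%) at least 2-fold lower and 0 higher (median -0.22). The lowest were the T cell kinase Prkcq (3238.1 and 8999.4, -1.37), the costimulatory receptor Cd28 (4167.7 and 9113.1, -1.03) and Nfatc3 (-0.99), and the highest was the cAMP-responsive factor Crem (0.92). Of 8 measured genes whose proteins are described as partners of Ecm1 in the matrix, 0 were past 2-fold, 1 of them known only by a bound. Fbln1 was at 0.89 and Plscr1 at 0.38. Their median of 0.07 changed sign under 3 of 8 other settings.

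**Figure D4:**
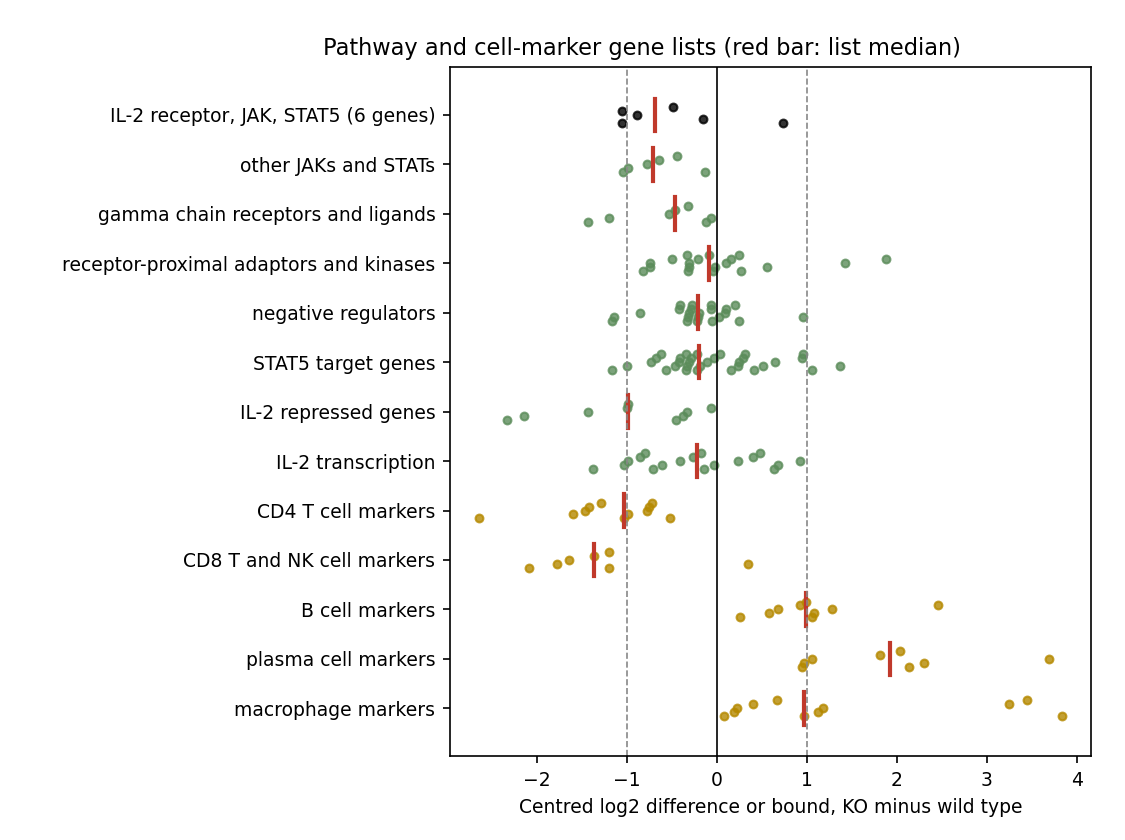
Centred log2 difference or bound, KO minus WT (horizontal axis), for single genes (points) of 12 lists, green for pathway lists and ochre for cell markers, and for the 6 members with a value in black, with list medians as red bars and dashed lines at 2-fold. The members' median (-0.69) lies near that of the other JAKs and STATs (-0.71) and between the STAT5 targets (-0.20) and the CD4 T cell markers (-1.03).

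Markers of several cell types also differed between the arrays. All 11 measured CD4 T cell markers were lower on the KO array, 6 of them at least 2-fold (median -1.03). Among all 11265 genes measured on at least 1 array, 46.3% lay below 0 and 4.45% were at least 2-fold lower. The summed signal of the CD4 T cell markers was 49618 in KO and 100086 in WT. Of the defining ones, Cd4 read 932.2 in KO and 3022.3 in WT (-1.59), Cd3d 15919.3 and 24487.0 (-0.52), Cd3e 3382.8 and 6210.6 (-0.77) and Cd3g 9656.3 and 17049.7 (-0.72). Jak3 and Stat5b both differed from the list's median by -0.03, and Jak1 by 0.14, while Stat5a lay 0.54, Il2rb 0.88 and Il2ra 1.76 above it. Jak1, Jak3 and the brighter Stat5b probe set were thus near the median of the CD4 T cell markers. Single markers ran from -2.64 (Trat1) to -0.52 (Cd3d), and Il2ra and Il2rb lay above all of them. Stat5a did so only by its brighter probe set (-0.48), and by less than the technical SD of 0.36. Its dimmer probe set, a bound of -0.99, and its averaged value of -0.95 lay within the range of the markers. In bulk RNA, fewer T cells and less RNA per T cell cannot be told apart.

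B cell markers were higher in all 9 measured, 4 at least 2-fold (median 0.998, summed signal 34851 in KO and 17256 in WT), with Ms4a1 (CD20) at 9420.5 and 6290.0 (0.69) and Pax5 below the floor on both arrays. Plasma cell markers were higher in all 8, 6 at least 2-fold (median 1.92, summed signal 89349 and 38858), with Sdc1 at 928.7 and 76.9, Jchain at 26366.0 and 13593.4, and Tnfrsf17 at 226.2 and 19.0. Macrophage markers were higher in all 11 measured, 4 of them by a bound, and 5 were at least 2-fold higher (median 0.97, summed signal 6888 and 1382), with Adgre1 at 200.5 and 135.5, Csf1r at 243.5 and 120.2 and Cd68 at 589.9 and 324.4. CD8 T and NK markers were lower in 6 of 7, all 6 at least 2-fold by brightest probe set (median -1.37, summed signal 10082 and 32412). Cd8a read 112.4 and 276.3 (-1.19), and its 3 other probe sets at or above the floor ran from -0.41 to 0.40. Cd8b1 read 541.0 and 1326.0, and Ncr1 was below the floor on both arrays. Eomes was the 1 above 0 (0.35, with -0.76 in its other probe set). Hepatocyte markers had 2 of 9 genes reach the floor on either array, both with a bound only (Apoa2 0.91 and Hnf4a -0.05). Whether either differed by 2-fold could not be read. Among all 11265 genes measured on at least 1 array, 7.36% were at least 2-fold higher and 4.45% lower. None of the defining markers was listed at 0. The part of these cell types in the values of Il2ra, Jak1, Jak3 and STAT5 was not tested.

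**Figure D5:**
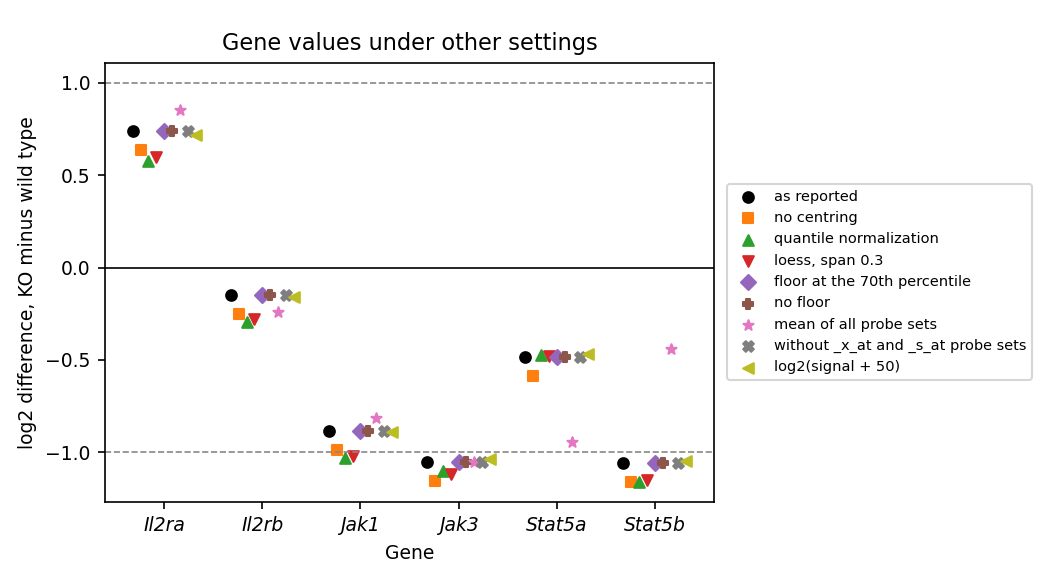
log2 difference, KO minus WT (vertical axis), of the 6 members with a value (horizontal axis) as reported (black circles) and under 8 other settings (coloured symbols), with dashed lines at 2-fold. Il2ra stays between 0.57 and 0.85 and Jak3 between -1.16 and -1.04, while averaging probe sets moves Stat5a to -0.95 and Stat5b to -0.44.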

How the data were processed

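The authors deposited intensities on a linear scale, with 45101 probe sets on each array, and per the labels' protocols biotin-labelled cRNA was made from 3 µg of total RNA with the one-cycle Affymetrix assay. The summarisation software and genome build were not stated in the sources used here. The 2% trimmed mean was 500.004 on both arrays, while 75th percentiles differed (423.4 in KO and 456.2 in WT). The arrays were thus scaled and not quantile normalised. The brightest 2% of probe sets did not enter that mean, and how other abundant transcripts bear on the scaling was not examined. Precision is limited by the number of arrays.

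Probe sets with 1 platform symbol (34945, not counting 64 controls) named genes, and 932 with several symbols did not. Signals below an array's median were treated as at the floor. log2 differences were centred, and where a gene had several probe sets the brightest over both arrays gave its value. Genes that reached the floor on only 1 array have a bound. Counts use a 2-fold threshold, with no test. Per the labels each group had 1 sample, so there were no replicates. Members, lists and settings were chosen with earlier results of these data known, and the genes flanking Ecm1 and the promoter motifs were added after the files were read. The text names all members, up to 4 genes of each pathway list with the largest difference, the 5 genes most like Ecm1 (Ecm1 itself included), its neighbours in WT rank, and defining cell markers. Cish, Bcl2, Ccnd2, Ccnd3, Maf, Tyk2, Trat1, Il15ra, Mcl1 and the sex-linked genes were named outside that rule, after their values were seen. So were Eomes, Apoa2, Hnf4a, Socs4, Crlf2, Il4, Il6ra, Il6st and Il17a. Gene order and promoters came from RefSeq GRCm38.p6. The procedure was tested on simulated data. Python 3.11.15, pandas 2.3.3 and statsmodels 0.14.6 were used. Alternatives were no centring, quantile normalization, loess (span 0.3), a floor at the 70th percentile, no floor, averaged probe sets, no _x_at or _s_at probe sets, and log2(signal + 50).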

Additional observations from a re-analysis of the deposited data

How the results depend on the processing

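No paired analysis was possible because KO and WT had 1 array apiece. The 7 members with a value kept their direction under all 8 alternatives. The bound for Ecm1 was -6.59 when the 70th percentile served as floor and with log2(signal + 50) it was -7.89, and without a floor its difference was -10.46, since the floor itself sets the bound. With probe sets averaged, Stat5a was at -0.95, because a signal below the floor enters, and Stat5b at -0.44, because its probe sets disagree. Counts of genes at least 2-fold higher and lower, 724 and 451, were 434 and 257 with the higher floor, where 7360 genes were counted, and 2864 and 2272 with no floor, where 18193 were. Of the 2-fold genes 61.6% were higher after centring and 49.0% without it. Of 112 list medians under alternatives, 2 moved by more than the technical SD: macrophage markers (2.11 with the higher floor) and plasma cell markers (1.55 with averaged probe sets). Il2, below the floor on both arrays, has no value that these alternatives could change except without a floor, and none is given.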

Other observations

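Some probe sets carry a member's symbol together with that of another gene and entered no comparison above. A probe set annotated to both Jak3 and Insl3, a relaxin-family hormone gene, read 2138.5 in KO and 5687.2 in WT (-1.31), and another annotated to both read 3.7 and 21.8, below the floor on both arrays. A probe set annotated to both Ntan1 and Il2 read 3196.1 in KO and 3638.2 in WT (-0.08). Their signal cannot be assigned to either gene.

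The Y-linked demethylase genes Kdm5d and Uty, which no comparison uses, also differed between the arrays. The probe set of Kdm5d with the highest KO signal read 410.0 in KO and 20.3 in WT, and that of Uty 352.9 in KO and 10.6 in WT.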
